A study of Mus musculus with 4 samples.

Results

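The genes described here are 35 genes of cell proliferation and mitosis, from the cyclins that start the cell cycle to the kinases of the mitotic spindle, measured in livers of *Rap1*-deficient and wild-type mice. They were found by the accession printed with each array probe, which matched 47 of 55681 probes to all 35 genes, of 19752 genes that could be named in this way. The arrays were 2-colour Agilent mouse expression arrays, each of which carried RNA of *Rap1*-deficient and of wild-type liver under different dyes. In replicates 1, 2 and 3, Cy5 marked the *Rap1*-deficient liver and Cy3 the wild-type liver. On the fourth array the dyes were exchanged. The labels number it 1, and on that ground it was paired with replicate 1, so that the 4 arrays stand for n = 3 pairs.

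*Rap1*-deficient mice lacked RAP1, a telomere-binding protein encoded by *Terf2ip*, in the whole body from early development. The floxed gene had been removed by a *cre* recombinase under the adenovirus *EIIa* promoter, and the *cre* allele was then bred out of the colony. Wild-type mice had the same C57BL6/129SV (90%:10%) background and the intact gene. The labels give an age of 30 weeks for both genotypes and no sex, whereas the paper describes females of a later age. The labels speak of 3 biological replicates per genotype but tie no array to an animal, so p-values measure the spread between these samples only, and a liver is numbered below by its array. RNA integrity numbers were given as a range, 6.6 to 8.7, and not by genotype.

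A cell divides after D-type cyclins with CDK4, and then cyclin E with CDK2, have released E2F transcription factors from their repressors. E2F factors switch on the genes of DNA replication, the MCM helicase and the enzymes of nucleotide synthesis among them. Later in the cycle, cyclins A and B with CDK1, the Aurora and Polo kinases and the anaphase-promoting complex carry the cell through mitosis. Most hepatocytes of an adult liver rest outside the cycle and re-enter it after loss of tissue, while macrophages and lymphocytes in the liver can also divide. In whole liver RNA, fewer cells of a type and less RNA per cell cannot be told apart.

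Promoters of cell cycle genes are known for a few short elements. Genes of the S phase often hold E2F motifs, and genes of mitosis often hold CCAAT boxes, bound by NF-Y, beside a cell cycle homology region. RefSeq promoter windows of GRCm38.p6, from 250 bases before to 50 bases after the gene start, were at hand for 29 of the 35 genes. The E2F motif was searched as TTTCCCGC with its variants TTTGGCGC, then TTTCGCGC, then TTTGCCGC. The homology region was searched as TTTGAA and the CCAAT box by its own letters, all of them on both strands. Matches of E2F letters may overlap each other. The promoters of the 3 tested genes of mitosis whose ratios had the largest SD over the pairs, *Mki67*, *Birc5* and *Plk1*, and of *Mcm6* as a gene of replication with E2F letters, are shown 5′ to 3′ from 170 bases before the start, with all matched letters of either strand in capitals. They lie at chr7:135716350-135716549 (*Mki67*) and chr1:128359676-128359875 (*Mcm6*) on the minus strand, and at chr11:117849067-117849266 (*Birc5*) and chr7:122159265-122159464 (*Plk1*) on the plus strand.
Mki67: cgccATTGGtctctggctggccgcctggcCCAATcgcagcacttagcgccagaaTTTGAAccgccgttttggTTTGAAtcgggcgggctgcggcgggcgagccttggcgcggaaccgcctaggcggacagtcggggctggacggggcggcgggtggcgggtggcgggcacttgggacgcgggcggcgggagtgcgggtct
Birc5: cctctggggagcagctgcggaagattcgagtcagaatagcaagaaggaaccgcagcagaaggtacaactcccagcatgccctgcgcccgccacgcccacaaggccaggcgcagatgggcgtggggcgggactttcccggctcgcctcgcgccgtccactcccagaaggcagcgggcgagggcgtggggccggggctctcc
Plk1: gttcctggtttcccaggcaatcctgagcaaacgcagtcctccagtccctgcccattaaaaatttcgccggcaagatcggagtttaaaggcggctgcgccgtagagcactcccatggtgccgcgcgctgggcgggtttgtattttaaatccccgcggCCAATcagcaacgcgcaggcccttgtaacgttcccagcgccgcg
Mcm6: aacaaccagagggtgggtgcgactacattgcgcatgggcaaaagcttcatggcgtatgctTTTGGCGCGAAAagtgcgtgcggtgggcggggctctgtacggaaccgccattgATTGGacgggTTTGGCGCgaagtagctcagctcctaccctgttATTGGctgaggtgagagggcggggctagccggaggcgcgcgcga

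E2F letters were found in 7 of the 29 genes with a window, or 21.9% of their windows against 2.3% of all 32851 windows. The 7 genes were *Cdc6*, *Cdk1*, *Cdk2*, *Mcm3*, *Mcm5*, *Mcm6* and *Mcm7*. CCAAT was found in 23 of the 29 genes (75.0% of windows against 37.4% of all) and TTTGAA in 9 (28.1% against 17.9%). In their windows, *Mki67* and *Plk1* hold CCAAT and TTTGAA and no E2F letters, *Birc5* holds none of the 3 motifs, and *Mcm6* holds E2F letters and CCAAT and no TTTGAA. The TTTGAA of *Plk1* begins at base 31 of the gene, past the stretch shown. These are matches of letters and not sites shown to be bound.

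Expression is given as a log2 ratio of *Rap1*-deficient over wild-type liver, where 1 stands for a 2-fold higher and -1 for a 2-fold lower level, turned to this direction on the dye-swapped array. A probe was tested if all 4 arrays showed it above background in 1 genotype or in both, which held for 27513 probes. From 50.1% to 56.4% of spots per channel cleared background. Across probes, which are not independent replicates, the arrays of replicates 1, 2 and 3 correlated at r = 0.64 to 0.85 among themselves and at -0.24 to -0.29 with the dye swap, whose value stands beside each gene. The probe A_52_P381806 of *Terf2ip* cleared background on 0 of 4 arrays for *Rap1*-deficient liver and on 4 of 4 for wild-type liver, and was at least 3.33-fold lower. A second probe, A_55_P2094079, was above background on all arrays and went the other way, with ratios of 1.17, 1.07, 0.88 and 0.72 on the swap (0.96 ± 0.09, adjusted p = 0.0329 by limma, and 0.0328 with the dye term). The positions of these probes against the floxed segment were not examined. All 12 hepatocyte markers were above background in both genotypes.

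Of the 35 genes, 28 were tested and 27 of them were above background in both genotypes. *Cdk2* entered through the *Rap1*-deficient livers, with 4 of 4 arrays against 2 of 4 in wild type. At a false discovery rate (FDR) under 0.15 by limma, the level used in the paper, 34.1% of all 13167 named genes tested passed, 18.0% as higher and 16.1% as lower in *Rap1*-deficient liver. At this level the paper reported far fewer deregulated probes in liver, and the reason for the difference was not tested. Over all probes, the share of higher among passing probes was 60.3%, against 45.3% on the authors' value table and 87.7% with median centring in place of loess. It was 32.5% of 83 probes with the swap as a replicate of its own and 14.3% of 7 without replicate 2. It was 68.8% of 1844 probes with a term for the dye and 69.6% of 2735 without replicate 3. Among the 28 genes 5 passed (17.9%). *Ccnd2*, *Cdk2*, *Cdc25b* and *Cdkn1b* were higher and *Rrm1* was lower, and 23 did not pass. The median log2 fold change of the 28 genes was 0.07, against 0.0049 over all genes. It was 0.25 with median centring, where all genes had 0.16, and -0.01 on the value table. None of the 5 genes had the same direction on the dye-swapped array, where 39.5% of all passing genes had it. Of all genes tested, passing or not, 41.7% had 1 sign on the other 3 arrays and the opposite sign on the swap. With a term for the dye in the fit over 4 arrays, 6.44% of all genes passed and 0 of the 28 in limma (adjusted p between 0.242 for *Cdkn1b* and 0.986 for *Mcm4*), 2 of which had an unadjusted p under 0.05. The fit with the dye term took the 4 arrays as independent samples, the replicate 1 array and its swap among them. Without replicate 2, 0 of the 28 passed and 0 had an unadjusted p under 0.05. Without replicate 3, 0 passed and 4 had an unadjusted p under 0.05.

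**Figure D1:**
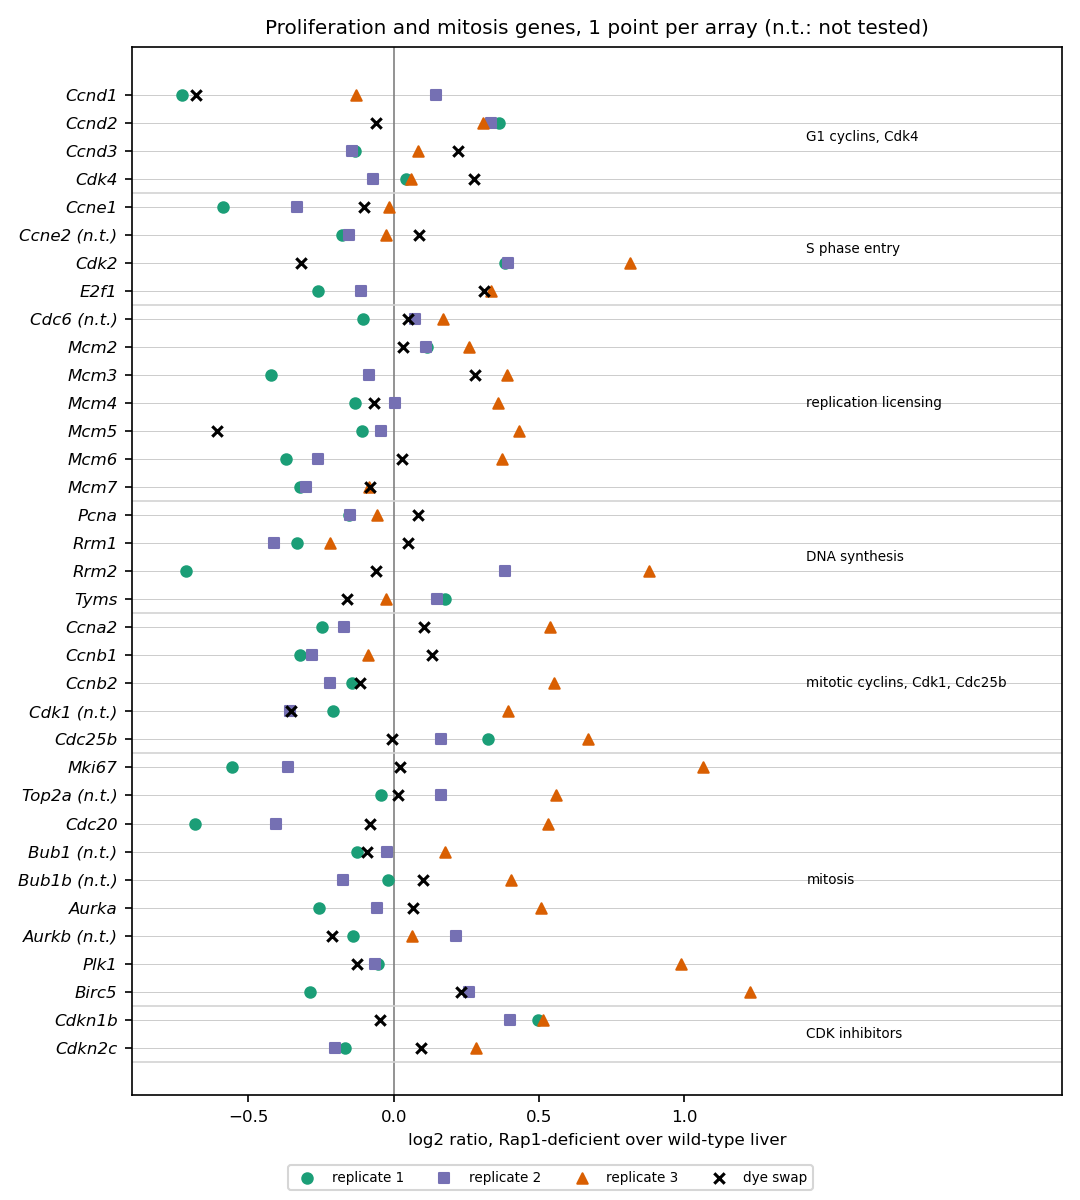
Log2 ratio of *Rap1*-deficient over wild-type liver for each of the 35 genes (rows, grouped by role), with 1 symbol for each of the 4 arrays; n.t. marks the 7 genes that were not tested. The triangles of replicate 3 lie to the right of the circles of replicate 1 for 26 of the 28 tested genes, most widely for *Mki67*, *Rrm2*, *Birc5*, *Cdc20* and *Plk1*.

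D-type cyclins couple growth signals to the cell cycle through CDK4. *Ccnd2* (cyclin D2, chr6:127125162-127152188) had log2 ratios of 0.36, 0.34 and 0.31 in replicates 1, 2 and 3, against -0.06 after the dyes were exchanged. Its normalized log2 intensity was 8.61, 8.58 and 8.58 in *Rap1*-deficient livers against 8.24, 8.25 and 8.27 in wild-type livers on the first 3 arrays, and 8.46 against 8.52 on the swapped one. The genotypes came in 1 order on the arrays of 1 dye orientation and in the opposite order on the other, as in 41.7% of all genes. The fold change was 0.26 ± 0.09 (SE, n = 3 pairs; adjusted p = 0.102 by limma, Benjamini-Hochberg).

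*Ccnd1* (cyclin D1, chr7:144929931-144939831), the D-type cyclin best known for the re-entry of hepatocytes into the cycle, varied by pair. Its ratio was -0.73 on the replicate 1 array and -0.68 on the dye-swapped array, against 0.15 and -0.13 on the arrays of replicates 2 and 3. The intensity in *Rap1*-deficient liver was 11.74 and 12.03 on the arrays numbered 1, with 12.47 and 12.71 in wild type, while it was 12.58 and 12.31 in *Rap1*-deficient livers 2 and 3 against 12.44 and 12.44 in wild type. *Ccnd1* was thus low in 1 of 3 *Rap1*-deficient livers under both dyes, and its mean fold change of -0.23 ± 0.17 did not pass (adjusted p = 0.384).

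The probes of *Ccnd3* and of *Cdk4* did not give the same answer. The probe that stands for *Ccnd3* had a fold change of -0.0055 ± 0.09 (adjusted p = 0.972), whereas its other probe, A_51_P238448, had ratios of 0.78, 0.75 and 0.93, -0.22 on the swap, and a fold change of 0.65 ± 0.14 (adjusted p = 0.0504). Of 3 *Cdk4* probes, 2 had fold changes of 0.05 and 0.07 and did not pass, and A_55_P2166639 had ratios of 0.46, 0.55 and 0.52, -0.18 on the swap, and a fold change of 0.40 ± 0.11 (adjusted p = 0.0749). In both genes the probe that passed turned sign when the dyes were exchanged.

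At the entry into S phase, *Cdk2* (chr10:128697938-128705051), the kinase partner of cyclins E and A, had ratios of 0.38, 0.39 and 0.81 and -0.32 on the swap. Its intensities were 7.03, 7.04 and 7.45 in *Rap1*-deficient livers, against 6.65, 6.65 and 6.64 in wild-type livers. On the dye-swapped array they were 7.06 in *Rap1*-deficient liver and 7.38 in wild type, so the liver in Cy5 read higher on all 4 arrays. The fold change was 0.41 ± 0.16 (adjusted p = 0.136), and 0.11 with the dye term (adjusted p = 0.669). *Cdk2* was tested only through the genotype in which it read higher, and where both genotypes had to clear background it dropped out and 3 genes were higher. With Agilent's processed signals its fold change was 1.43 (adjusted p = 0.0652). *Ccne1* (cyclin E1) was lower on all 4 arrays, at -0.59, -0.33, -0.01 and -0.10, without passing (-0.23 ± 0.10, adjusted p = 0.181). *E2f1*, the transcription factor of the G1/S transition, had -0.26, -0.11 and 0.34 and 0.31 on the swap. *Ccne2* was not above background on any array in either genotype.

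The MCM proteins form the helicase that is loaded on replication origins by CDC6. All 6 MCM genes were tested, and 0 passed in limma or had an unadjusted p under 0.05, with fold changes between -0.20 ± 0.09 (*Mcm7*, adjusted p = 0.185) and 0.15 ± 0.09 (*Mcm2*, adjusted p = 0.283). *Mcm2* was higher on all 4 arrays (0.11, 0.11, 0.26 and 0.03) and *Mcm7* was lower on all 4 (-0.32, -0.30, -0.08 and -0.08), where 10.4% of all genes were higher and 11.4% lower on all 4. The ratio on the replicate 3 array exceeded that on the replicate 1 array for 6 of 6. *Mcm3* had -0.42 on the array of replicate 1 and 0.39 on that of replicate 3, and *Mcm6* had -0.37 and 0.37. *Mcm5* had -0.11, -0.04 and 0.43, and -0.61 on the swap. *Cdc6* was not above background on any array.

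Among the genes of DNA synthesis, *Rrm1* (chr7:102441695-102469771), the large subunit of ribonucleotide reductase, had ratios of -0.33, -0.41 and -0.22 and 0.05 on the swap. Its intensities were 8.59, 8.54 and 8.69 in *Rap1*-deficient livers against 8.93, 8.96 and 8.91 in wild-type livers, and 8.68 against 8.63 on the swap. The fold change was -0.26 ± 0.09 (adjusted p = 0.123), and -0.14 with the dye term (adjusted p = 0.436). The small subunit *Rrm2*, which is made in S phase, behaved otherwise and spread over a wide range, at -0.71, 0.38 and 0.88 and -0.06 on the swap (0.29 ± 0.24, adjusted p = 0.422). *Pcna*, the sliding clamp of DNA polymerases, had -0.15, -0.15, -0.06 and 0.08, and *Tyms*, thymidylate synthase, had 0.18, 0.15, -0.03 and -0.16. Neither passed, and both stayed within 0.2 of zero on every array.

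Mitotic cyclins and their activators followed. *Ccna2* (cyclin A2) had -0.25, -0.17 and 0.54 and 0.10 on the swap, and *Ccnb2* (cyclin B2) had -0.14, -0.22 and 0.55 and -0.11 on the swap. Both were highest in the *Rap1*-deficient liver of replicate 3. *Ccnb1* (cyclin B1) had -0.32, -0.28 and -0.09 and 0.13 on the swap (-0.15 ± 0.09, adjusted p = 0.273). *Cdc25b* (chr2:131186436-131198511), a phosphatase that removes inhibitory phosphates from CDK1, had 0.32, 0.16 and 0.67 and -0.01 on the swap. Its intensities were 7.31, 7.16 and 7.53 in *Rap1*-deficient livers against 6.99, 7.001 and 6.86 in wild-type livers, and the fold change was 0.33 ± 0.13 (adjusted p = 0.143). On the swap the genotypes were level, at 7.05 and 7.06. *Cdk1*, the kinase of mitotic entry, had 3 probes, of which 0 were tested and which differed. The brightest cleared background on 1 of 4 arrays for *Rap1*-deficient liver and on 3 of 4 for wild type. Its ratios were -0.21, -0.36 and 0.39, and -0.35 on the swap. A_55_P2016647 cleared background on 3 of 4 for *Rap1*-deficient liver and on 0 of 4 for wild type. That probe had ratios of 0.58, 0.57 and 0.29 and -0.16 on the swap. The last probe cleared background on none.

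By role, the widest spread between the 3 pairs was in genes of mitosis and the spindle, of which 5 of 9 were tested and 0 passed in limma or had an unadjusted p under 0.05. *Mki67* (chr7:135689784-135716450), which encodes the proliferation antigen Ki-67, had ratios of -0.56, -0.36 and 1.06, and 0.02 on the swap. Its intensities were 7.33, 7.73 and 9.31 in *Rap1*-deficient livers and 7.87 on the swap, against 7.89, 8.09 and 8.25 in wild-type livers and 7.85 on the swap. *Mki67* was thus below wild type in *Rap1*-deficient livers 1 and 2 on the arrays of these replicates and above every wild-type liver in *Rap1*-deficient liver 3. The mean fold change was 0.14 ± 0.29 (adjusted p = 0.749). A second probe of the gene gave -0.28, 0.28 and 1.49 and -0.07 on the swap (0.53 ± 0.31, adjusted p = 0.279).

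*Birc5* (survivin, of the chromosomal passenger complex) had ratios of -0.29, 0.26 and 1.23 and 0.23 on the swap (0.49 ± 0.24, adjusted p = 0.219). Its intensities were 8.15, 8.72 and 9.78 in *Rap1*-deficient livers and 8.54 on the swap, against 8.44, 8.46 and 8.55 in wild-type livers and 8.31 on the swap. Other probes of *Birc5* were near background and not tested. A_55_P1983768 cleared it on 2 of 4 arrays for *Rap1*-deficient liver and on 0 of 4 for wild type. Its ratios were 0.22, 0.25 and 0.78, and -0.05 on the swap. A_55_P1983769 cleared background on 1 of 4 and 0 of 4. *Plk1*, the Polo kinase of mitosis, read 6.71, 6.80 and 7.82 in *Rap1*-deficient livers, against 6.76, 6.86 and 6.83 in wild-type livers (0.28 ± 0.23, adjusted p = 0.427). Only the third *Rap1*-deficient liver stood apart for *Plk1*, with a ratio of 0.99 against -0.05 and -0.06 in the others and -0.13 on the swap. *Cdc20*, an activator of the anaphase-promoting complex, had -0.68, -0.40 and 0.53 and -0.08 on the swap. *Aurka* (Aurora A, a kinase of the centrosome) had -0.26, -0.06 and 0.51 and 0.07 on the swap.

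**Figure D2:**
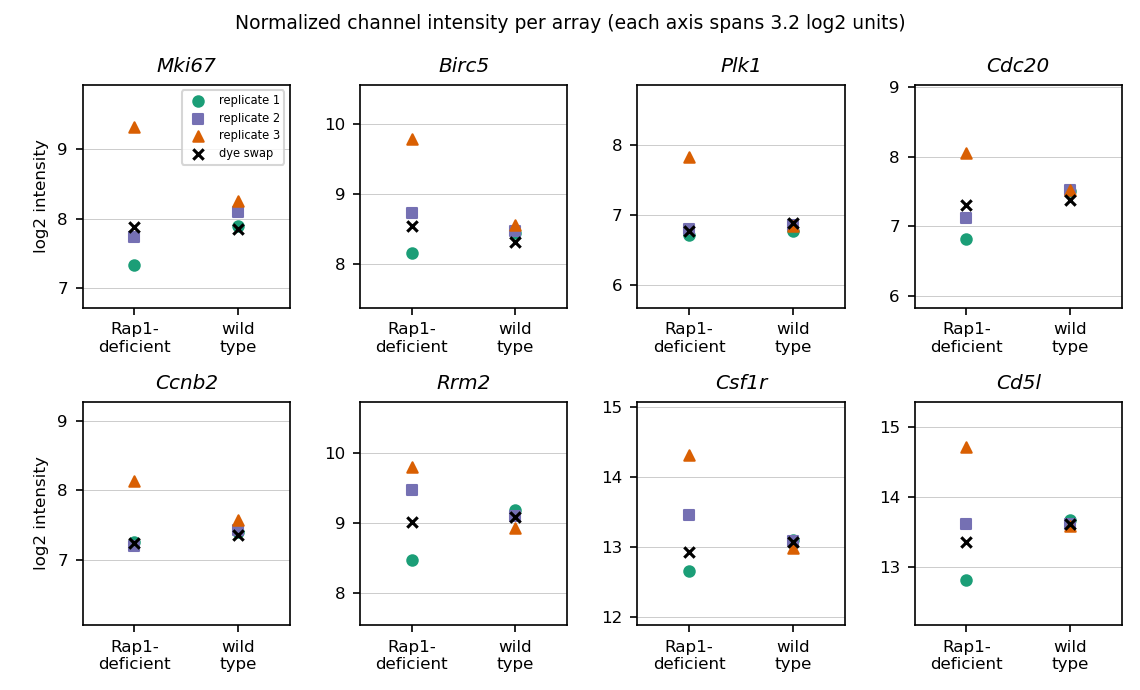
Normalized log2 intensity of 6 proliferation genes and of the macrophage genes *Csf1r* and *Cd5l* in *Rap1*-deficient (left) and wild-type (right) liver, 1 symbol per array, with axes of equal span. The wild-type symbols lie close together, whereas the *Rap1*-deficient liver of replicate 3 is highest in all 8 panels, at 9.31 for *Mki67* against 7.33 to 7.87 in the others. The 8 genes were picked for display. The macrophage gene *Vsig4*, not shown, read 12.82 in *Rap1*-deficient liver on the replicate 3 array against 12.95 in wild type.

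The remaining genes of this group were at or near background. *Top2a* (topoisomerase II alpha) cleared it on 1 of 4 arrays for *Rap1*-deficient liver and on 0 of 4 for wild type. *Bub1b*, a spindle checkpoint kinase, cleared it on 2 of 4 arrays for *Rap1*-deficient liver and on 1 of 4 for wild type. *Bub1* and *Aurkb* were above background on none in either genotype. These 4 genes were not tested, and values of genes at background carry no order.

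CDK inhibitors hold the cycle back. *Cdkn1b* (p27, chr6:134920401-134925525) had ratios of 0.50, 0.40 and 0.51 and -0.05 on the swap. Its intensities were 10.25, 10.04 and 10.12 in *Rap1*-deficient livers against 9.76, 9.64 and 9.61 in wild-type livers, and 9.77 against 9.82 on the swap. It had the smallest adjusted p of the 28 genes (0.38 ± 0.09, adjusted p = 0.0626), and 0.21 with the dye term (adjusted p = 0.242). *Cdkn2c* (p18) had -0.17, -0.20 and 0.28 and 0.10 on the swap and did not pass (0.01 ± 0.12, adjusted p = 0.94).

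**Figure D3:**
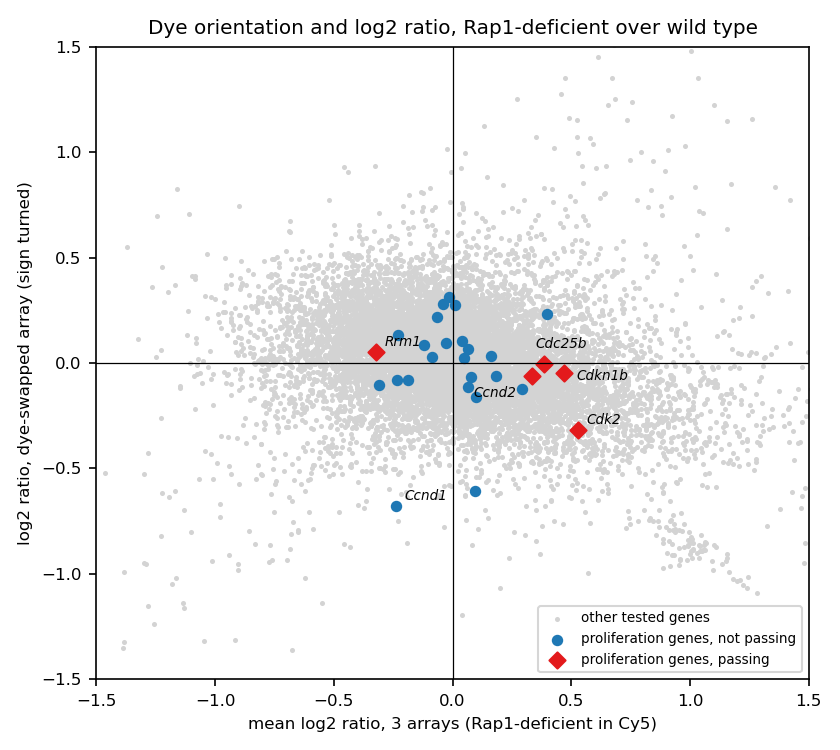
Mean log2 ratio over the arrays of replicates 1, 2 and 3, where Cy5 marked *Rap1*-deficient liver (x), against the ratio on the dye-swapped array, sign turned (y), for the tested genes, with the 5 passing proliferation genes as diamonds; 132 genes lie outside the plotted range. The 4 diamonds to the right lie at or below zero on the y axis and *Rrm1*, to the left, lies at 0.05, while *Ccnd1* is negative on both axes.

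Across the whole group, the ratios of most genes moved together between the arrays of replicates 1 and 3. The ratio on the replicate 3 array exceeded that on the replicate 1 array in 26 of the 28 genes (92.9%), against 49.2% of all genes, and by more than 0.5 in 14 (50%), against 10.4%. None of the 5 passing genes was among these 14, but a gap between pairs raises the SE on which passing depends. The share of such gaps among all passing genes was not counted. It was the highest of the 4 arrays in 19 genes (67.9%), against 24.7% of all genes. The median ratio of the 28 genes was -0.21, -0.08 and 0.37 on the arrays of replicates 1, 2 and 3 and 0.0087 on the swap, while the medians over all genes lay between -0.02 and 0.01. With the swap averaged into replicate 1, the medians of pairs 1, 2 and 3 were -0.080, -0.078 and 0.367. For the 5 spindle genes the medians by array were -0.29, -0.06 and 0.99, and 0.02 on the swap. The SD over the 3 pairs had a median of 0.259 for the 28 genes and 0.615 for the spindle genes, against 0.168 for all genes. These are counts and medians over genes that share the same livers, and no test was made of them.

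The spread lay in the *Rap1*-deficient channel. On the 3 arrays of 1 dye orientation, the SD of the log2 intensity had a median of 0.336 in *Rap1*-deficient livers and 0.0781 in wild-type livers over the 28 genes, and was larger in *Rap1*-deficient livers for 26 of them (92.9%, against 84.3% of all genes). Over all genes these medians were 0.149 and 0.0567. The *Rap1*-deficient liver of replicate 3 was the highest of the 4 *Rap1*-deficient channels for 23 of the 28 genes (82.1%, against 26.0% of all genes). Genotype and dye cannot be told apart on these 3 arrays, and whether the wild-type RNA of the arrays came from separate livers was not tested.

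Markers of some other liver cells moved between the arrays as well. Macrophage markers had median ratios of -0.44, 0.23 and 1.34, and -0.27 on the swap. All 11 tested (of 12 listed) were higher on the replicate 3 array than on that of replicate 1, with ratios from -1.05 to 0.62 on the array of replicate 1 and from -0.14 to 2.71 on that of replicate 3. *Csf1r*, the receptor for macrophage colony-stimulating factor, had -0.45, 0.38 and 1.34 and -0.14 on the swap, *Cd5l*, made by tissue macrophages, had -0.86, -0.0036 and 1.14 and -0.27, and *Vsig4*, a complement receptor of Kupffer cells, had -1.05, -0.24 and -0.14 and 0.13. Lymphocyte markers had medians of 0.18, 0.01 and 0.77, and 0.10 on the swap, and 9 of 11 tested were higher on the replicate 3 array than on the replicate 1 array. The brightest of them, *Cd4*, *Nkg7* and *Cd3e*, had 0.30, 0.53 and 1.02 on the replicate 3 array and 0.13, 0.14 and 0.63 on that of replicate 1. The summed intensity of the 11 macrophage markers ranged from 26776 (replicate 1) to 92945 (replicate 3) in *Rap1*-deficient livers and from 40176 to 42997 in wild-type livers, and all 11 were above background in both genotypes. That of the lymphocyte markers ranged from 12247 to 19563 in *Rap1*-deficient livers and from 13050 to 14279 in wild-type livers, and *Cd79a* was above background on no array. Of the 10 markers for stellate cells and fibroblasts, the ratio on the replicate 3 array exceeded that of replicate 1 in 7, with medians of -0.11, 0.06 and 0.15, and 0.16 on the swap. The brightest, *Dcn*, *Lum* and *Col1a2*, had 0.58, 0.0041 and 2.27 on the replicate 3 array and -0.05, -0.18 and 0.69 on that of replicate 1. The collagen genes *Col1a1* and *Col3a1*, named after their values were seen, had 1.85 and 1.37 on the replicate 3 array and -0.19 and -0.20 on that of replicate 1. *Acta2*, *Des* and *Reln* went the other way. They had -0.05, 0.19 and 0.07 on the replicate 3 array and 0.29, 0.22 and 0.10 on that of replicate 1. The summed intensity of this list ranged from 22783 (replicate 1) to 36216 (replicate 3) in *Rap1*-deficient livers and from 22669 to 24355 in wild-type livers, and 8 of 10 were above background in both genotypes. The 3 tested erythroid markers (of 6 listed) were instead high on both arrays numbered 1, with a sum of 70787 on the array of replicate 1 and 66692 on the swap in *Rap1*-deficient liver, 34574 and 38640 in *Rap1*-deficient livers 2 and 3, and 37044 to 46608 in wild-type livers. All these sums add intensities on the linear scale, so that the brightest markers weigh most. In *Rap1*-deficient liver on the replicate 1 array, *Hba-a1* had a log2 intensity of 16.07, against 10.86 for *Alas2* and 7.74 for *Slc4a1*. *Cd4* read 13.54 there, against 10.33 for *Nkg7*. On the replicate 3 array *Dcn* read 14.74 in *Rap1*-deficient liver, against 11.48 for *Col1a2*. Hepatocyte markers did not follow, with medians of 0.27, 0.34 and 0.24, and -0.52 on the swap. Endothelial markers had medians of 0.13, 0.10 and 0.10, and -0.0064 on the swap. Of these, 5 of 10 were higher on the replicate 3 array than on that of replicate 1. Cholangiocyte markers had medians of 0.32, 0.10 and 0.20, and 0.31 on the swap, and 1 of 5 tested was higher on the replicate 3 array. The part of these cells in the proliferation genes was not tested.

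**Figure D4:**
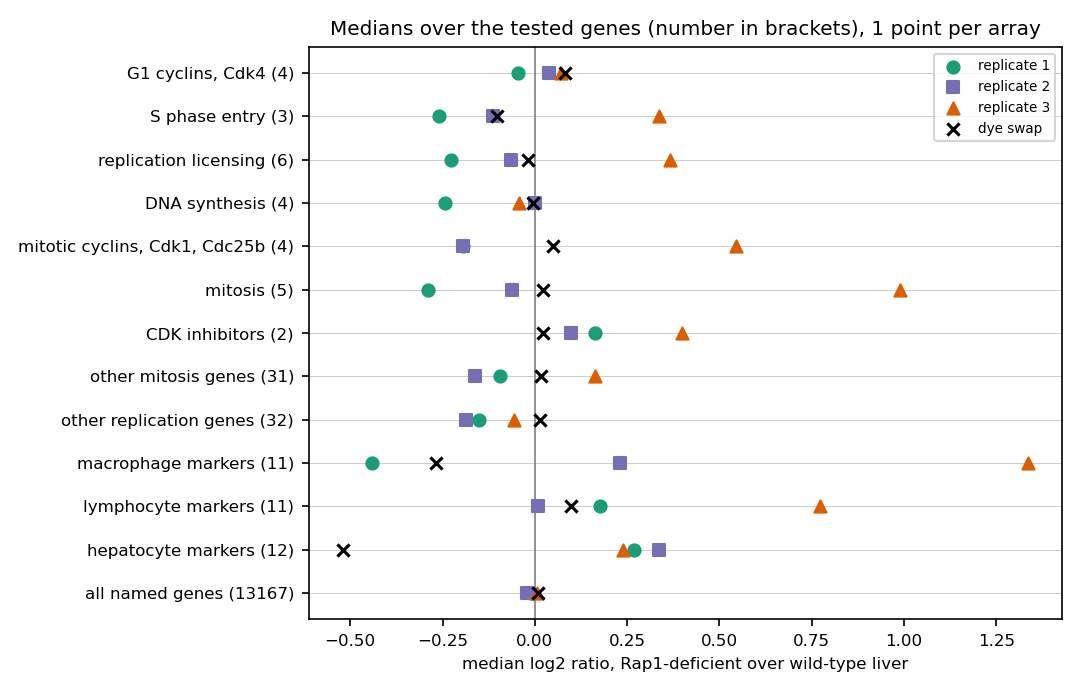
Median log2 ratio of *Rap1*-deficient over wild-type liver on each array, for the proliferation genes by role, other cell cycle genes, markers of macrophages, lymphocytes and hepatocytes, and all named genes (number of tested genes in brackets). Replicate 3 stands to the right for the spindle genes (0.99), the mitotic cyclin group (0.55), macrophage markers (1.34) and lymphocyte markers (0.77), and the medians of all genes stay near zero.

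Other genes of the same pathway were read from 3 further lists. Of 31 tested genes of mitosis (53 listed), 1 was higher, 4 were lower and 26 did not pass (16.1% passing), and 25 of 31 (80.6%) had a higher ratio on the replicate 3 array than on that of replicate 1. Of 32 tested genes of replication (44 listed), 3 were higher, 9 lower and 20 did not pass (37.5%), and 16 of 32 had the higher ratio on the replicate 3 array. Of 34 tested regulators (38 listed), 3 were higher, 6 lower and 25 did not pass (26.5%). Among these regulators, 25 of 34 (73.5%) had the higher ratio on the replicate 3 array, against 49.2% of all genes. The replication genes thus passed about as often as all genes and had a median fold change of -0.12.

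In these lists some genes had the same direction on all 4 arrays and passed with the dye term too. That fit counted the replicate 1 array and its swap as independent samples, which limits its p-values. *Gadd45g*, a growth arrest gene induced by stress, had ratios of -0.88, -1.49, -0.67 and -0.94 on the swap. Its intensities were 11.52, 10.87 and 11.66 in *Rap1*-deficient livers and 11.14 on the swap, against 12.40, 12.36 and 12.33 in wild-type livers and 12.08 on the swap. It was lower on all 4 arrays, as were 11.4% of all genes, and the fold change was -1.02 ± 0.17 (adjusted p = 0.0402 by limma, and 0.0723 with the dye term). *Cdkn1c* (p57), a CDK inhibitor of imprinted expression, had 0.56, 0.69, 0.38 and 0.51 on the swap. It read 8.85, 9.02 and 8.56 in *Rap1*-deficient livers and 8.96 on the swap, against 8.29, 8.33 and 8.18 in wild-type livers and 8.46 on the swap (0.53 ± 0.10, adjusted p = 0.0414, and 0.0754 with the dye term). *Cdkn1c* was thus higher under both dyes, on all 4 arrays as were 10.4% of all genes, whereas *Cdkn1b* was higher under 1.

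*Cdc25a*, a phosphatase that activates CDK2, had -0.69, -0.52, -0.43 and -0.21 on the swap (-0.47 ± 0.08, adjusted p = 0.0403, and 0.119 with the dye term). *Cdt1*, which loads the MCM helicase with CDC6, had -0.58, -0.73, -0.19 and -0.48 on the swap (-0.48 ± 0.12, adjusted p = 0.0651, and 0.136 with the dye term). Both were lower on all 4 arrays. *Gins1*, of the GINS complex of the replicative helicase, had -0.59, -0.61 and -0.54 but -0.0027 on the swap (-0.48 ± 0.10, adjusted p = 0.0463, and 0.141 with the dye term). Without replicate 2, *Gadd45g*, *Cdkn1c*, *Cdc25a*, *Cdt1* and *Gins1* did not pass (adjusted p from 0.267 to 0.376), and neither did the lower probe of *Terf2ip* (0.186). With the swap as a replicate of its own, these 5 genes did not pass either (adjusted p from 0.167 to 0.238). With median centring *Cdc25a*, *Cdt1* and *Gins1* did not pass, with smaller fold changes of -0.27, -0.29 and -0.28 (adjusted p = 0.221, 0.324 and 0.173), and *Gins1* did not pass without replicate 3 (adjusted p = 0.156).

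The other genes with the smallest p in their lists did not pass with the dye term. *Orc6*, of the origin recognition complex, had a fold change of -0.50 ± 0.09 (adjusted p = 0.0415) and 0.09 on the swap. *Rfc2*, of the clamp loader, had 0.35 ± 0.08 (adjusted p = 0.0531) and 0.09 on the swap. The CDK-binding subunits *Cks2* and *Cks1b* had -0.52 ± 0.12 (adjusted p = 0.0516) and -0.39 ± 0.15 (adjusted p = 0.136), with -0.09 and 0.24 on the swap. *Ect2*, a factor of cytokinesis, had -0.43 ± 0.14 (adjusted p = 0.104) and 0.12 on the swap. *Lin9*, of the MuvB complex that binds promoters of cell cycle genes, had -0.48 ± 0.14 (adjusted p = 0.0845) and -0.04 on the swap, and *Ccnh*, of the CDK-activating kinase, had -0.53 ± 0.16 (adjusted p = 0.0871) and 0.39 on the swap. *Orc6*, *Cks1b*, *Ect2* and *Ccnh* turned sign with the dye.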

How the data were processed

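Liver RNA of *Rap1*-deficient and wild-type mice was compared on 4 2-colour arrays of 1 slide. The authors deposited median spot and background intensities of both dyes from Agilent Feature Extraction (10.7.3.1 by the file headers, another version in the methods), its processed intensities, flags for spots well above background and log10 ratios of Cy5 over Cy3. The authors' value table holds log2 ratios, credited to limma, whose column medians were -0.0119, -0.0157, -0.0203 and 0.000826 (dye swap, already turned), and how it was corrected for background and normalized is not stated in the sources used here. The authors' log10 ratios served to find that direction.

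Median intensities were corrected by normexp (offset 50) and normalized by loess within arrays with control spots at weight 0 (limma 3.58.1, R 4.3.3). Repeated spots were averaged without those flagged as outliers, which removed 5 of 55681 probes. The dye swap was turned and averaged with replicate 1. Dye bias cancels only within that pair. The other pairs had *Rap1*-deficient liver in Cy5 alone, so fold changes fitted without a dye term keep part of it. A probe was tested where all 4 arrays had at least 0.5 of its spots flagged well above background in 1 genotype or both (27513 probes, 49.4%), by lmFit and eBayes against 0, adjusted by Benjamini-Hochberg over all of them, at an FDR under 0.15. No spot was saturated. Intensities per channel come from loess and quantile normalization of the mean intensity, and bounds from the lowest signal well above background. These channel values are open to dye bias, with 1 swap among 4 arrays.

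Through RefSeq accessions (GRCm38.p6), 46.8% of probes were named. The brightest tested probe stood for a gene, and the place of a probe within its gene was not used. The text names all 35 genes, up to 4 passing genes with the smallest p in each other cell cycle list, *Terf2ip*, and the 3 brightest markers of lists that move beside a result. Further stellate and fibroblast markers were named after their values were seen. The members and lists were chosen with earlier results of these data known. The fit was tested on simulated data. Alternatives were the filter, the normalization, the value table, the handling of the swap, a dye term, the FDR, the probe per gene and leaving out each replicate.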

Additional observations from a re-analysis of the deposited data

Results flagged for a closer look

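For each of the 5 passing genes, the arrays of replicates 1, 2 and 3 and the dye-swapped array pointed in opposite directions. The difference between the dye orientations was not tested for single genes. The mean log2 ratio on those 3 arrays was 0.335 for *Ccnd2*, with -0.060 on the swap. *Cdk2* had a mean of 0.53 on the 3 arrays and -0.318 on the swap. *Cdc25b* had 0.385 and -0.0053, *Cdkn1b* had 0.469 and -0.0486, and *Rrm1* had -0.322 and 0.0509. Over all genes tested, 41.7% had 1 sign on the 3 arrays and the opposite sign on the swap.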

How the results depend on the processing

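Of all tested probes, 9488 passed at an FDR under 0.15. The number was 1844 with the dye term, 83 with the swap as an extra replicate, 14496 with the swap left out and 2495 at an FDR under 0.05. Leaving out 1 replicate gave 7 (without replicate 2) to 12596 probes (without replicate 1). Of the proliferation genes, 4 passed as higher and 1 as lower. With the dye term, with the swap as an extra replicate and at an FDR under 0.05, 0 passed in either direction. Without the filter on dim probes 2 were higher, the authors' value table gave 2 higher and 3 lower, median centring 0 lower, and the swap left out 4 lower. Leaving out 1 replicate gave 0 to 6 higher and 0 to 1 lower, and medians of -0.08 to 0.16. Median centring in place of loess moved the median of all genes to 0.16. The count of 26 genes with a higher ratio on the replicate 3 array was 24 on the value table and on Agilent's processed signals, and 27 with median centring, which were chosen after seeing the data.

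Fold changes that turned sign belonged to genes that did not pass. With Agilent's processed signals they were *Ccnb2* (-0.0095), *Mcm3* (-0.034), *Mcm5* (-0.14) and *Cdkn2c* (-0.13). With the value table they were *Ccnb2* (-0.017), *Cdk4* (-0.021), *Mcm3* (-0.039), *Mcm5* (-0.054), *E2f1* (-0.0095) and *Cdkn2c* (-0.10). With median centring they were *Ccnd3* (0.15), *Cdc20* (0.098), *Mcm6* (0.15) and *Pcna* (0.069). With the dye term they were *Ccnb2* (-0.026), *Ccnd3* (0.078), *Mcm5* (-0.26) and *Tyms* (-0.030). With the swap as an extra replicate they were *Ccnd3* (0.0067) and *Mcm5* (-0.082). With the swap left out they were *Mcm3* (-0.040), *E2f1* (-0.013) and *Cdkn2c* (-0.029). Leaving out each replicate in turn, the ranges that crossed zero were *Ccnd1* (-0.42 to 0.0078), *Cdk4* (-0.0058 to 0.11), *Cdc20* (-0.39 to 0.074), *Mcm6* (-0.22 to 0.10), *Ccnd3* (-0.051 to 0.064), *Tyms* (-0.0095 to 0.079), *Mki67* (-0.32 to 0.40), *Ccna2* (-0.12 to 0.23), *Ccnb2* (-0.17 to 0.21), *Aurka* (-0.076 to 0.23), *Plk1* (-0.076 to 0.46), *Mcm3* (-0.078 to 0.16), *Mcm4* (-0.048 to 0.18), *Mcm5* (-0.20 to 0.19), *Rrm2* (-0.0025 to 0.63), *E2f1* (-0.044 to 0.18) and *Cdkn2c* (-0.12 to 0.12). Without replicate 3, 11 genes turned sign. The cause was not tested.

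The tests were made on ratios within arrays, which pair the genotypes. With the swap averaged into replicate 1, a block for the replicate number would take up every degree of freedom, so none was fitted. A block over the single arrays was not tried. The number of arrays limits the precision.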
